A study of Heterocephalus glaber and Mus musculus with 9 samples.

Results

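The genes described here are those of smooth muscle and the other contractile proteins, 48 of the 12946 genes listed in a table of spleen RNA levels of mice and naked mole-rats (NM-Rs). They were chosen by name alone: the myosin heavy and light chains and light chain kinases, tropomyosins, calponins, leiomodins, transgelins and troponins, together with Acta1, Acta2, Actc1, Actg2, Des, Cald1, Smtn, Synm, Myocd and Vcl. By role they fall into 16 genes of the smooth muscle contractile apparatus, 7 genes of non-muscle contractile proteins and 25 genes of striated muscle. Of the genes these lists hold, Myl9 of smooth muscle, Myl12a, Tpm3, Tpm4 and Tagln2 of non-muscle cells and 8 striated muscle genes (Myh2, Myh4, Myh15, Myl1, Lmod2, Lmod3, Tnni3k and Tnnc2) are not listed in the table and were not analysed here.

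Contraction runs on filaments of actin pulled by myosin. In smooth muscle, calcium bound to calmodulin switches on myosin light chain kinase, tropomyosin, caldesmon and calponin lie along the actin filament, desmin and synemin form the intermediate filaments, and vinculin anchors actin at the membrane. Striated muscle uses its own myosins and the troponin complex in place of light chain phosphorylation, and every cell carries non-muscle myosin. In the spleen, smooth muscle lies in the walls of arteries, in the capsule and in the trabeculae, and its share differs greatly between mammals.

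Bulk RNA was sequenced from 9 spleens, 1 library per animal. The 3 mice were wild-type (WT) C57Bl/6N males of 2 months, kept at about 22 °C. The NM-Rs were healthy and kept at 29 °C, and the labels sort them by the size of the spleen: the 3 ssNM-Rs (small spleens, replicates 2, 3 and 6) were males of 30, 26 and 23 months, and the 3 lsNM-Rs (enlarged spleens, replicates 1, 4 and 5) were 24, 29 and 23 months old, with replicate 4 a female and the others male. No animal was treated. Species therefore goes together with age, housing temperature, reference genome and gene models, and these cannot be told apart. The libraries held between 7815326 and 18387599 reads, the mice between 10441982 and 11180912. Tlx1, a factor needed to form the spleen, stood at 746 ± 156 normalized counts in the mice and 853 ± 111 in the NM-Rs (mean ± SD, n = 3 and 6), whereas Ptprc, carried by all leukocytes, stood at 21364 ± 1178 and 5511 ± 962. Normalized counts are reads scaled by the size factor of each library and are not divided by gene length. They compare spleens of 1 species for 1 gene. Between the species the gene models differ, so a fold can also reflect gene length, which was not corrected. In whole tissue, more cells of a type and more RNA per cell cannot be told apart.

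Upstream sequence of these genes is shown first because smooth muscle promoters share a DNA element, the CArG box, to which serum response factor binds (CC, then 6 bases that are each A or T, then GG). The 250 bases before the annotated start were read from the mouse genome (mm9) for 47 of the 48 genes, of which 7 (14.9%) held a CArG box, against 294 (1.31%) of 22372 windows of all protein-coding genes. With boxes that carry 1 other letter among the 6 inner bases, the counts were 12 (25.5%) of 47 and 1834 (8.2%) of all windows. The box reads as a CArG box on both strands, and a match describes letters only. Exact boxes were in the windows of Actg2 and Tagln of the smooth muscle genes, of Cnn2 of the non-muscle genes and of Acta1, Actc1, Myl3 and Myl7 of the striated genes. That is 2 (12.5%) of 16 smooth muscle windows and 4 (16.7%) of 24 striated windows, so exact boxes were not particular to smooth muscle genes. Printed here are the windows of 3 genes whose RNA was higher in NM-Rs and of 1 that was lower, as described below for each. The windows of Acta1, Actc1, Myl3 and Myl7, whose RNA did not pass between the species, are not printed. Whether a box goes with the RNA level was not tested. Each is written 5′ to 3′ on the strand of the gene, with the boxes in capitals, and ends 1 base before the start site.

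Actg2 (chr6:83486260-83486509, minus strand, exact boxes whose first bases are at -68 and -31 from the start): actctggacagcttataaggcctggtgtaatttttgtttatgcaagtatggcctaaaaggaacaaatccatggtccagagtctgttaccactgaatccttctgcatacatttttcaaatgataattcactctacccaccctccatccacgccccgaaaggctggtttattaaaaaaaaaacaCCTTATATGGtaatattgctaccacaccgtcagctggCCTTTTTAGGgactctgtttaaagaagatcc
Tagln (chr9:45744142-45744391, minus strand, exact box at -112): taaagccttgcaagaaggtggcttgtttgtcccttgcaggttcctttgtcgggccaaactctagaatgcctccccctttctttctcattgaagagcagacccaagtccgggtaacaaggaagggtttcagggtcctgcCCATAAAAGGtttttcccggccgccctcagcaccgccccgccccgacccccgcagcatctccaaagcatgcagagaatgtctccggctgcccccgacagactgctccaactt
Acta2 (chr19:34329827-34330076, minus strand, boxes with 1 other letter at -121 and -71): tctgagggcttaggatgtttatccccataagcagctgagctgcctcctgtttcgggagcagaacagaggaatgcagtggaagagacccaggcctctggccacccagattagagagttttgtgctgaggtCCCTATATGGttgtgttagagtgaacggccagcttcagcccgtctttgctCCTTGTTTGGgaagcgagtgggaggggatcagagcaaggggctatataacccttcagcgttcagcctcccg
Cnn2 (chr10:79451079-79451328, plus strand, exact box at -40): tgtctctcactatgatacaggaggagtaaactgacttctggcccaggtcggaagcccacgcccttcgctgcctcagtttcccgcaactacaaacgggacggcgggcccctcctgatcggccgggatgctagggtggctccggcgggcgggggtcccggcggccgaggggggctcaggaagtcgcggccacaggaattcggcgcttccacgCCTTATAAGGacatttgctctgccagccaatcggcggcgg

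The first question was how the contractile genes of the NM-R spleen compare with those of the mouse. The fit was limma on log2(normalized count + 1) across all 12946 genes, with the mean of both NM-R cohorts set against the mice and a Benjamini-Hochberg adjusted p under 0.05 as the threshold. Of the 48 genes, 25 (52.1%) were higher in NM-Rs, 10 (20.8%) were lower and 13 did not pass. Among all genes 39.7% were higher and 38.8% lower (78.5% in all), so a call as such was common between these species. The median log2 fold change was 0.76 for the 48 genes and 0.01 for all genes. In 24 of the 48 genes all 6 NM-Rs lay above all 3 mice, as in 36.4% of all genes, and in 10 all lay below, as in 36.2% of all genes. By role, of the smooth muscle genes 11 of 16 (68.8%) were higher and 2 (12.5%) lower with a median of 1.04, of the non-muscle genes 3 of 7 were higher and 2 lower with a median of 0.26, and of the striated genes 11 of 25 (44.0%) were higher and 6 (24.0%) lower with a median of 0.47.

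**Figure D1:**
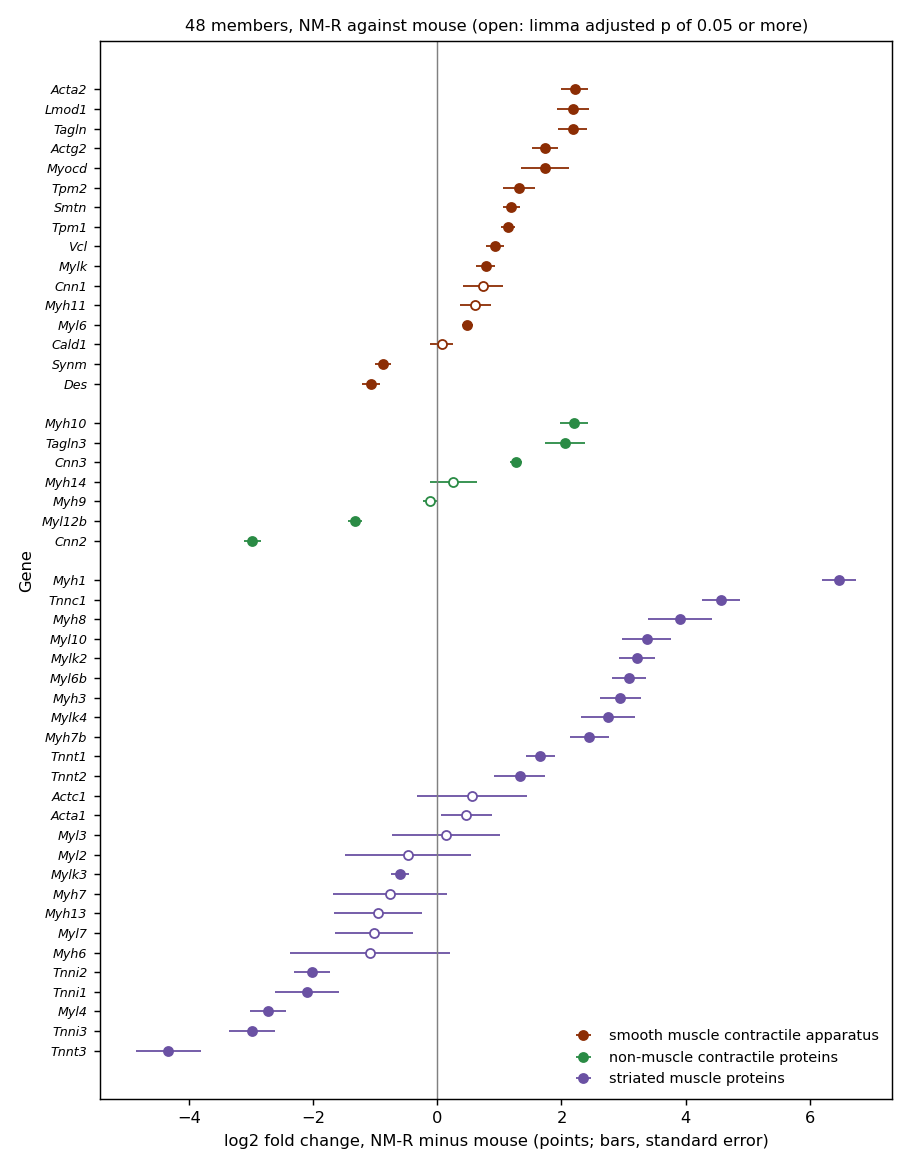
Log2 fold change of NM-R (mean of both cohorts) over mouse for each of the 48 genes on the horizontal axis, with genes by role on the vertical axis. Points are limma estimates with their standard errors, and open points have an adjusted p of 0.05 or more. Acta2, Lmod1 and Tagln lead the smooth muscle genes near 2.2 while Des and Synm lie below 0, and the striated genes spread from -4.33 (Tnnt3) to 6.47 (Myh1).

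Acta2, the actin of vascular smooth muscle (chr19:34315580-34329826), was 4.70-fold higher in NM-Rs. It stood at 2471, 2383 and 1753 normalized counts in the mice, at 10434, 9215 and 14145 in the ssNM-Rs and at 6881, 8677 and 12702 in the lsNM-Rs. The lowest NM-R, lsNM-R 1, was still far above the highest mouse, and the 2 cohorts overlapped. The log2 fold change was 2.21 (SE 0.21, adjusted p = 5.22e-06). Tagln (chr9:45737711-45744141), an actin-binding protein of smooth muscle also called SM22, went with it at 2015, 2132 and 1604 in the mice, 8310.1, 7203 and 13483 in the ssNM-Rs and 6017, 7860.2 and 10679 in the lsNM-Rs. That is 4.66-fold on the means, with a log2 fold change of 2.18 (SE 0.23, adjusted p = 9.75e-06). In mm9 Tagln overlaps Pcsk7 on the other strand, and Vcl overlaps Ap3m1. Des, Smtn, Cald1, Lmod1, Myl12b and Mylk3 overlap other annotated genes in this way. So do Myh1, Myh7, Myh7b, Myl2, Myl4, Tnnt3, Acta1 and Actc1. Whether the counting used strand is not stated in the sources used here. On the same strand Tnni3 overlaps 6030429G01Rik, and Myh6, Myh7, Myh7b, Myh9 and Myh13 overlap genes of short RNAs, which strand does not separate.

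Lmod1, a leiomodin that nucleates actin filaments in smooth muscle, rose by as much. The mice held 170, 118 and 120 normalized counts, the ssNM-Rs 674, 548 and 684 and the lsNM-Rs 349, 645 and 917, a 4.68-fold difference of the means (log2 fold change 2.18, SE 0.26, adjusted p = 3.1e-05). Actg2, the actin of visceral smooth muscle (chr6:83462899-83486259), lay between 184 and 251 in the mice. It was at 770, 576 and 1099.6 in the ssNM-Rs and 558, 724 and 835 in the lsNM-Rs (3.42-fold, log2 fold change 1.74, SE 0.21, adjusted p = 2.59e-05). No NM-R overlapped with a mouse in these genes. Myocd, the coactivator of serum response factor that turns on smooth muscle genes, is a low gene, with 7.34 to 29.1 in the mice and 34.5 to 64.3 in the NM-Rs. Its log2 fold change of 1.73 (SE 0.39, adjusted p = 0.00213) rests on few reads.

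The tropomyosins Tpm1 and Tpm2 and smoothelin, a protein of contractile smooth muscle cells, differed by 2.22- to 2.62-fold. Tpm1 stood at 2637, 2573 and 2387 normalized counts in the mice, 5836, 5468 and 5961 in the ssNM-Rs and 4542, 5771 and 6154 in the lsNM-Rs (log2 fold change 1.14, SE 0.11, adjusted p = 4.28e-06). Tpm2 was more uneven, from 554 to 736 in the mice, at 1668, 1282 and 2827 in the ssNM-Rs and at 1009.9, 1491 and 1982 in the lsNM-Rs (1.32, SE 0.26, adjusted p = 0.000978). Smtn lay between 534 and 764 in the mice, between 1492 and 1637 in the ssNM-Rs and between 1215 and 1678 in the lsNM-Rs (1.19, SE 0.14, adjusted p = 2.11e-05). Of these 3 genes the ssNM-Rs varied most in Tpm2, with an SD of 804 around a mean of 1926 in the ssNM-Rs.

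Vinculin, the light chain kinase and the light chain Myl6 rose less. Vcl stood at 2112, 1909.8 and 1582 in the mice, 3322, 3321 and 3423 in the ssNM-Rs and 2879.9, 4506 and 3933 in the lsNM-Rs (1.91-fold, log2 fold change 0.93, SE 0.14, adjusted p = 0.000173). Mylk was at 2635, 2109.8 and 1682 in the mice, 3688, 3510.0 and 3984 in the ssNM-Rs and 2879.9, 3809.9 and 3969 in the lsNM-Rs (1.70-fold, 0.78, SE 0.15, adjusted p = 0.000828). In both, mouse 1 was the highest mouse and lsNM-R 1 the lowest NM-R, and the species did not overlap. Myl6, the essential light chain of smooth muscle and non-muscle myosins, went from 5616 to 5952 in the mice to 6722 to 9653 in the NM-Rs (1.41-fold, 0.48, SE 0.09, adjusted p = 0.000949). In mouse transcripts 20.7% of the 100-base stretches of Myl6 also occur in Gm8894, so its count is uncertain.

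The myosin of smooth muscle itself and calponin 1 did not pass in this comparison. Myh11, the smooth muscle myosin heavy chain (chr16:14194620-14291501), stood at 1815, 1654 and 1273 normalized counts in the mice, 2621, 1654 and 4015 in the ssNM-Rs and 1709, 2273 and 2682 in the lsNM-Rs. The values of ssNM-R 3 and lsNM-R 1 were within the mouse range, and the log2 fold change was 0.61 (SE 0.25, adjusted p = 0.0506). Without ssNM-R 3 it was 0.77 (adjusted p = 0.00655), without lsNM-R 1 it was 0.69 (adjusted p = 0.0369), and the edgeR quasi-likelihood test and DESeq2 on the recovered reads gave 0.67 (adjusted p = 0.0326) and 0.65 (adjusted p = 0.0166). With another spleen left out it did not pass, down to 0.45 without ssNM-R 6 (adjusted p = 0.0635) and 0.46 without mouse 3 (adjusted p = 0.198), and over all alternatives the value lay between 0.22 and 0.77. Cnn1, a calponin found in smooth muscle, had 148, 170 and 108 in the mice, 268, 158 and 487 in the ssNM-Rs and 174, 171 and 262 in the lsNM-Rs. Here too ssNM-R 3 lay within the mouse range (0.74, SE 0.32, adjusted p = 0.0553), and without it the value was 0.94 (adjusted p = 0.00796), with 0.85 (adjusted p = 0.0340) by edgeR and 0.81 (adjusted p = 0.0181) by DESeq2. With any other spleen left out it did not pass, down to 0.53 without ssNM-R 6 (adjusted p = 0.0662) and 0.56 without mouse 3 (adjusted p = 0.208), and over all alternatives the value lay between 0.42 and 0.94. For Cnn1 the replicate ssNM-R 6 was far above the other NM-Rs. Cald1, the caldesmon gene, ranged from 1761 to 2624 in the mice and from 1789.5 to 2890.4 in the NM-Rs, and its log2 fold change of 0.07 had an SE of 0.18 (adjusted p = 0.717).

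Both intermediate filament genes went the other way. Des, the gene of desmin (chr1:75356904-75365154), stood at 1596, 1552 and 1405 in the mice, 796, 880 and 986 in the ssNM-Rs and 736, 635 and 446 in the lsNM-Rs. Every NM-R was below every mouse, 2.03-fold lower on the means (log2 fold change -1.07, SE 0.15, adjusted p = 8.42e-05). Synm, the gene of synemin, which assembles with desmin, was at 350, 327 and 283 in the mice, 157, 138 and 157 in the ssNM-Rs and 232, 176 and 192 in the lsNM-Rs (1.83-fold lower, -0.88, SE 0.13, adjusted p = 0.000136). Against the mice, both calls and their direction held in every alternative tried, including 9 fits that each leave out 1 spleen.

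**Figure D2:**
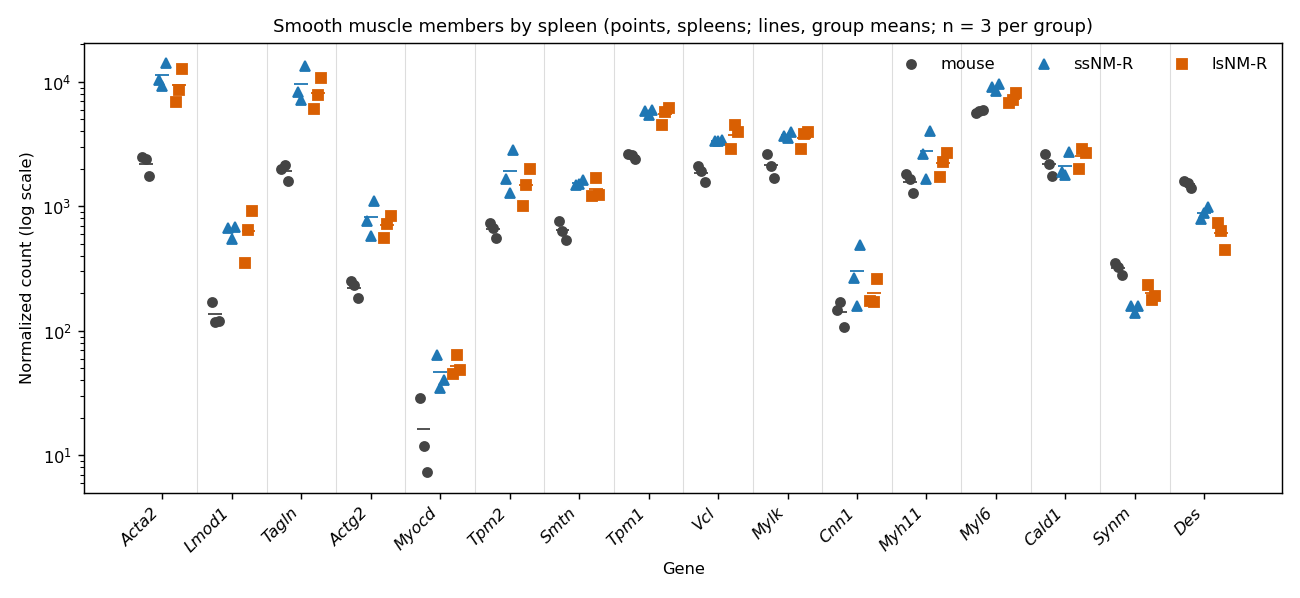
Normalized counts (log scale) of the 16 smooth muscle genes in each spleen, with points for spleens and lines for group means of 3 spleens. The NM-Rs lie above the mice from Acta2 to Mylk, overlap with them for Cnn1, Myh11 and Cald1, and lie below them for Synm and Des.

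Ratios between 2 of these genes within a spleen do not depend on the size factor of the library, although they do depend on the gene lengths of each species. Acta2 over Tagln was alike in all 9 spleens, at 1.09 to 1.23 in the mice and 1.05 to 1.28 in the NM-Rs. Acta2 over Actg2 was 9.55 to 10.2 in the mice and 12.0 to 16.0 in the NM-Rs, and Acta2 over Myh11 was 1.36 to 1.44 and 3.52 to 5.57. The species were furthest apart for Acta2 over Des, at 1.55, 1.54 and 1.25 in the mice, 13.1, 10.5 and 14.3 in the ssNM-Rs and 9.35, 13.7 and 28.4 in the lsNM-Rs. The smooth muscle genes of the NM-R spleen thus differed from those of the mouse by unequal amounts, with actin and transgelin far ahead of the myosin, and desmin lower. Summed over the 16 genes, the level was 21189.6 to 25969 normalized counts in the mice, 45743 to 65289.9 in the ssNM-Rs and 37931 to 56853 in the lsNM-Rs.

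**Figure D3:**
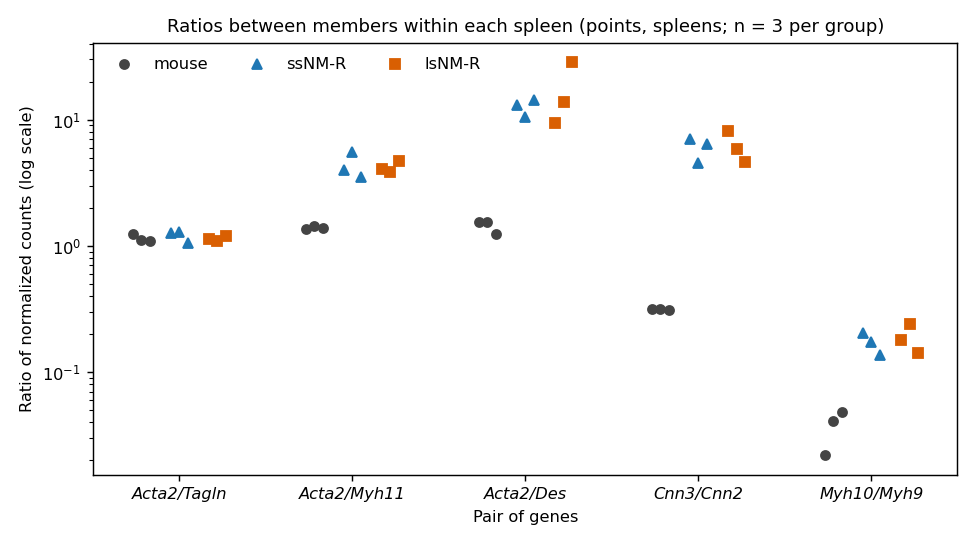
Ratios of normalized counts (log scale) for 5 pairs of genes in each spleen, 3 spleens per group. Acta2/Tagln is alike in both species (1.05 to 1.28), and the other 4 ratios are higher in all 6 NM-Rs than in all 3 mice.

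Single spleens were often at an end of the range. Of the 15 smooth muscle genes that averaged 100 or more in a group, ssNM-R 6 was the highest NM-R for 9 and lsNM-R 1 the lowest for 10. Among the mice, mouse 1 was the highest for 12 and mouse 3 the lowest for 13. Values of different genes in 1 spleen share the library, so these counts describe single spleens. Divided by exon length, which was possible only for the mice, the most abundant of the 48 genes there were Myl6 at 8743 ± 264 normalized counts per kilobase, Myl12b at 2561 ± 59.8, Cnn2 at 2245 ± 19.5, Myh9 at 1748 ± 93.7, Acta2 at 1237 ± 220 and Tagln at 1209 ± 175 (mean ± SD, n = 3). Acta2 and Tagln, neighbours in this order, differed by less than their SD, whereas Des at 404 ± 26.7, Myh11 at 238 ± 42 and Cnn1 at 59.8 ± 13.2 stood lower.

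Non-muscle proteins, which drive the crawling, division and shape of all cells, went both ways. Cnn2, a calponin abundant in blood cells (chr10:79451329-79458807), stood at 5573, 5477 and 5520.2 normalized counts in the mice, 630, 740 and 663 in the ssNM-Rs and 541, 804 and 855 in the lsNM-Rs. It was 7.83-fold lower in NM-Rs (log2 fold change -2.98, SE 0.14, adjusted p = 3.62e-08). Its paralogue Cnn3 went the opposite way, from 1757, 1719 and 1699.9 in the mice to 4392, 3354 and 4235 in the ssNM-Rs and 4425, 4707 and 3975 in the lsNM-Rs (2.42-fold higher, 1.27, SE 0.10, adjusted p = 1.61e-06). In reads, Cnn2 led in each mouse and Cnn3 in each NM-R, with Cnn3 over Cnn2 at 0.308 to 0.315 in the mice and 4.53 to 8.18 in the NM-Rs. The calponins share none of their 100-base stretches with another gene in mouse transcripts, so reads of this length tell them apart there.

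The myosins showed a like contrast. Myh9, the heavy chain of the non-muscle myosin that prevails in blood cells and platelets, lay between 21266 and 23629.8 in the mice and between 18563 and 23209 in the NM-Rs, and its log2 fold change of -0.11 (SE 0.12, adjusted p = 0.414) did not pass. With quantile normalization it was -0.43 (adjusted p = 0.0211). Myh10, the heavy chain of the related non-muscle myosin B (chr11:68505061-68630134), stood at 521, 934 and 1028 in the mice, 3779.7, 3608 and 3156 in the ssNM-Rs and 3575, 5164 and 3036 in the lsNM-Rs. It was 4.50-fold higher in NM-Rs (2.20, SE 0.23, adjusted p = 8.94e-06), and all 6 lay above all mice. Myh10 over Myh9 was 0.0220 to 0.0483 in the mice and 0.136 to 0.239 in the NM-Rs. Of the remaining non-muscle genes, Myl12b, a regulatory light chain of these myosins, fell from 4368, 4287 and 4490.4 in the mice to 1873, 2042 and 1686 in the ssNM-Rs and 1953, 1591 and 1382 in the lsNM-Rs (-1.33, SE 0.11, adjusted p = 2.21e-06). Its paralogue Myl12a is not in the table. Tagln3, the transgelin of neurons, was low but higher in NM-Rs (4.01 to 10.9 in mice, 23.2 to 43.5 in NM-Rs, 2.06, SE 0.32, adjusted p = 0.00019), and Myh14 lay at 2.01 to 6.95 in all spleens with no call. Summed over the 7 genes, the level was 34016 to 35855 in the mice and 29272 to 33889.9 in the NM-Rs.

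**Figure D4:**
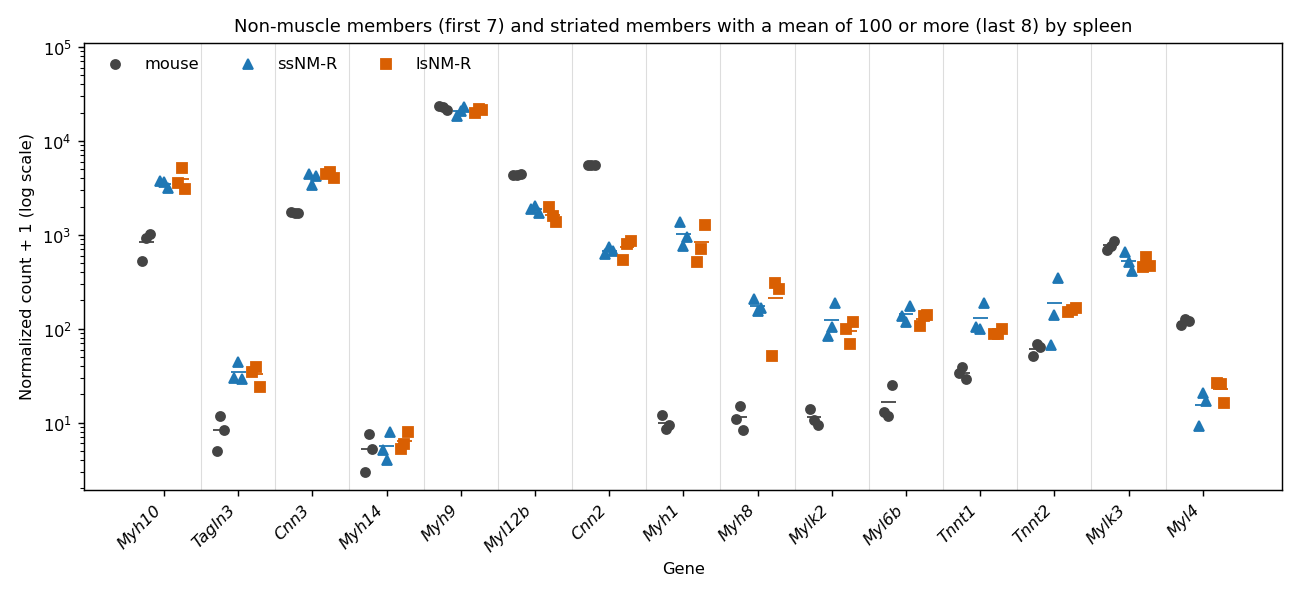
Normalized count plus 1 (log scale) of the 7 non-muscle genes and the 8 striated muscle genes that averaged 100 or more in a group, by spleen, with lines for the mean of 3 spleens. Cnn2 and Myl12b are lower and Cnn3 and Myh10 higher in all NM-Rs, Myh9 overlaps, and Myh1 rises from about 10 in the mice to between 517 and 1357 in the NM-Rs.

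Striated muscle genes were mostly low in the mice, and in NM-Rs a few of them were not. Myh1, the heavy chain of fast skeletal muscle myosin (chr11:67013554-67038078), stood at 11.0, 7.61 and 8.39 normalized counts in the mice, 1357, 755 and 952 in the ssNM-Rs and 517, 707 and 1257 in the lsNM-Rs. The means differed 103-fold (log2 fold change 6.47, SE 0.28, adjusted p = 2.54e-08). Myh8, the perinatal heavy chain, went from 7.34 to 14.1 in the mice to 204, 153 and 167 in the ssNM-Rs and 50.8, 309 and 267 in the lsNM-Rs (18.2-fold, 3.91, SE 0.51, adjusted p = 4.98e-05), with lsNM-R 1 far below the other NM-Rs. Skeletal heavy chains are near copies of each other. In mouse transcripts 9.18% of the 100-base stretches of Myh1 and 5.15% of those of Myh8 occur in another gene of the family, Myh2 and Myh4 are not listed, and how NM-R genes were matched to mouse names decides which heavy chain these reads stand for, so the names Myh1 and Myh8 are uncertain.

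Light chains and kinases of striated muscle went both ways. Mylk2, the light chain kinase of skeletal muscle, was at 8.39 to 13.0 in the mice, 83.4, 104 and 185 in the ssNM-Rs and 98.9, 67.0 and 117 in the lsNM-Rs (10.5-fold, log2 fold change 3.22, SE 0.29, adjusted p = 3.72e-06). Myl6b, an alkali light chain of slow muscle that non-muscle cells carry too, was at 10.9 to 24.1 in the mice, 135, 117 and 174 in the ssNM-Rs and 105, 135 and 140 in the lsNM-Rs (8.58-fold, 3.09, SE 0.27, adjusted p = 2.42e-06). Neither overlapped between species. Myl4, the light chain of atrial and embryonic muscle, went the other way, from 108, 125 and 121 in the mice to 8.20, 19.5 and 15.8 in the ssNM-Rs and 25.4, 24.7 and 15.0 in the lsNM-Rs (6.51-fold lower, -2.72, SE 0.29, adjusted p = 1.24e-05). Mylk3, the kinase of cardiac muscle, was the striated gene with the highest mouse level, at 690, 766 and 855 in the mice, 658, 509 and 411 in the ssNM-Rs and 458, 578 and 470 in the lsNM-Rs (log2 fold change -0.60, SE 0.15, adjusted p = 0.00457).

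The troponins, which make striated muscle sensitive to calcium, went both ways. Of the troponin T genes, Tnnt1 of slow muscle was at 33.1, 38.0 and 28.3 in the mice, 104, 97.6 and 188 in the ssNM-Rs and 86.2, 86.7 and 99.1 in the lsNM-Rs (3.33-fold higher, log2 fold change 1.66, SE 0.23, adjusted p = 8.23e-05). Tnnt2 of the heart was at 50.2 to 68.5 in the mice, 65.6, 140 and 350 in the ssNM-Rs and 148, 157 and 167 in the lsNM-Rs. The species overlapped through ssNM-R 2, and the log2 fold change of 1.33 (SE 0.41, adjusted p = 0.0133) was 1.20 without mouse 1 and no longer passed (adjusted p = 0.0589). Tnnt3 of fast muscle was lower, at 51.2 to 62.0 in the mice and 0 to 6.32 in the NM-Rs (-4.33, SE 0.52, adjusted p = 2.98e-05). Its 23.4-fold difference of the means rests on few reads, since the NM-R mean of 2.43 is below 3.12, the level of 3 reads per NM-R library. All 3 inhibitory subunits fell as well, Tnni1 with -2.10 (SE 0.51, adjusted p = 0.00370), Tnni2 with -2.02 (SE 0.29, adjusted p = 0.000115) and Tnni3 with -2.99 (SE 0.37, adjusted p = 3.39e-05), all from levels of 6.02 to 92.3 in the mice. Tnnc1, the calcium-binding subunit of slow and cardiac muscle, was at 0 in each mouse and at 15.0 to 30.1 in the NM-Rs. That is at least 7.48-fold higher against a floor of 3 reads per mouse library. Its name had no unique protein-coding match in the mouse annotation used here, so it was the gene without an upstream window. Whether the annotation bears on its 0 reads in the mice was not tested.

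The other low genes add few reads. Myh7b was at 3.26 to 7.34 in the mice and 21.0 to 50.6 in the NM-Rs (log2 fold change 2.45, SE 0.32, adjusted p = 5.71e-05). Myh3, Myl10 and Mylk4 had at most 3 reads in each mouse and lay between 9.57 and 31.0 normalized counts in the NM-Rs, and all 3 passed. The 8 striated genes that did not pass are Acta1, Actc1, Myh6, Myh7, Myh13, Myl2, Myl3 and Myl7. None of these averaged more than 21.0 in a species, and mouse 3 alone held 59.8 for Myh6, 29.4 for Actc1 and 16.8 for Myl2, against 0 to 3.26 in the other mice. Acta1, the gene of skeletal muscle actin, lay between 3.14 and 15.0 in all 9 spleens. Summed over the 25 striated genes, the level was 1174 to 1465 in the mice and 1651 to 2773 in the NM-Rs.

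Genes that control the contraction of smooth muscle, in a list that holds none of the 48 genes, were about evenly split. Of 18 in the table, 6 (33.3%) were higher in NM-Rs, 7 (38.9%) lower and 5 did not pass, with a median log2 fold change of 0.16. These shares were near those of all genes (39.7% higher and 38.8% lower). Kcnma1, the calcium-activated potassium channel that relaxes smooth muscle (2.33, SE 0.26, adjusted p = 1.58e-05), Prkg1, the kinase that carries the nitric oxide signal (1.72, SE 0.34, adjusted p = 0.000936), and the calmodulin gene Calm2 (1.27, SE 0.10, adjusted p = 1.23e-06) were among the higher ones. The inositol trisphosphate receptor Itpr1 (-1.90, SE 0.15, adjusted p = 1.14e-06), the myosin phosphatase subunits Ppp1r12b (-1.76) and Ppp1r12c (-1.48) and the calcium channel Cacna1c (-0.99) were among the lower ones. Of 12 factors listed for the transcription of smooth muscle genes, 4 (33.3%) were higher (Tbx2, Prrx1, Gata6 and Smad3). Another 5 (41.7%) were lower (Mef2a, Tead1, Tcf21, Mef2c and Nkx2-3). The list does not sort factors that raise these genes from factors that lower them. The other 3 did not pass, among them the serum response factor partners Mrtfa (adjusted p = 0.977) and Mrtfb (-0.34, SE 0.16, adjusted p = 0.0666). Srf is not listed in the table.

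Proteins that fix actin to membranes and to the matrix form the third list of partner genes. Of 30 in the table, 18 were higher in NM-Rs, 3 lower and 9 did not pass, with a median of 0.44. These counts are read beside the shares of all genes, of which 39.7% were higher and 38.8% lower. Log2 fold changes of 3.03 to 3.90 were seen for Tln2, a talin (3.90, SE 0.14), Pdlim3 (3.72, SE 0.18) and Fhl2 (3.71, SE 0.14), LIM proteins of actin structures, Pgm5, a partner of muscle adhesions (3.62, SE 0.27), and Sorbs3, which binds vinculin (3.03, SE 0.10), all with adjusted p of 1.01e-06 or less. Lpp, a LIM protein of smooth muscle adhesions, fell from 1416 ± 231 to 191 ± 56.8 (-2.94, SE 0.26, adjusted p = 2.9e-06), and Zyx (-0.82) and Pxn (-0.38) were lower as well. Cytoplasmic actin Actb did not pass (-0.33, SE 0.17, adjusted p = 0.0980).

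Markers of other cells moved with the species too, and their part in the results above was not tested. Calls were common among all genes, of which 39.7% were higher and 38.8% lower, and these short lists are read beside those shares. The summed level of 10 fibroblast and reticular genes was 12315 to 13788 in the mice and 20771 to 36021 in the NM-Rs, with 5 genes higher, 2 lower and 3 not passing. Of 7 pericyte genes 3 were higher and 4 lower, with sums of 3885 to 5841 and 2928 to 4558. Of 10 endothelial genes 1 was higher, 6 lower and 3 did not pass (15071 to 18123 against 7305 to 8349.8). Of 6 megakaryocyte and platelet genes, cells that carry much non-muscle myosin, 4 were higher, 1 lower and 1 did not pass (5247 to 6597 against 16961 to 30141). The mesothelium, which covers the spleen, had 2 genes higher, 1 lower and 5 not passing of 8 (644 to 926 against 820 to 2779), and proliferation had 3 of 3 higher (2953 to 6179.9 against 12651 to 16137). Of the 10 spleen genes 2 were higher, 5 lower and 3 did not pass (76785 to 83659 against 40428 to 58247).

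For the striated genes, skeletal and cardiac muscle and neighbouring tissues were checked in the same way, beside the same shares of all genes (39.7% higher and 38.8% lower). Beyond the 48 genes, 4 of 11 skeletal muscle genes were higher, 2 lower and 5 did not pass (426 to 541 against 813 to 1237), with Atp2a1, the calcium pump of fast fibres, rising from 23.0 ± 8.13 to 393 ± 81.3 and Ckm, the creatine kinase of muscle, only from 1.03 ± 1.05 to 21.6 ± 8.09. Ryr1, the calcium release channel of the same fibres, fell from 152 ± 14.2 to 38.8 ± 9.39. Of 4 cardiac genes 2 were higher, Pln (13.4 ± 6.62 to 555 ± 207), the brake on the calcium pump, and Mybpc3 (19.4 ± 7.66 to 497 ± 55.0), and 2 were lower, Ryr2 and Casq2 (140 to 154 against 870 to 1469 in sum). Adipose genes were higher for 4 of 6 with 2 not passing (73.9 to 155 against 558 to 1165), and of 3 pancreas genes 1 was higher, 1 lower and 1 did not pass (365 to 497 against 94.1 to 186). No gene of these lists was at 0 in all 3 mice or in all 6 NM-Rs.

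The next question was whether the enlarged spleens differ from the small ones. Set against the mice, the cohorts gave 27 higher and 10 lower genes of 48 in ssNM-Rs (all genes, 38.0% higher and 37.5% lower, 75.5% in all) and 25 higher and 11 lower in lsNM-Rs (all genes, 38.1% and 37.0%, 75.0% in all). These comparisons use the same mice. Side by side, Acta2 was 2.35 (SE 0.24) above the mice in ssNM-Rs and 2.07 (SE 0.24) in lsNM-Rs on the log2 scale, Tagln 2.29 (SE 0.26) and 2.06 (SE 0.26), Lmod1 2.23 (SE 0.31) and 2.13 (SE 0.31), and Myh10 2.14 (SE 0.26) and 2.27 (SE 0.26). Myh11 passed in ssNM-Rs (0.73, adjusted p = 0.0448) and not in lsNM-Rs (0.48, adjusted p = 0.162), as did Cnn1 (0.97, adjusted p = 0.0348, and 0.51, adjusted p = 0.234). The difference between the cohorts themselves did not pass for either (unadjusted p = 0.422 and 0.237). Myl7 was lower in lsNM-Rs alone against mice (-1.83, adjusted p = 0.0421), with 0 reads in all 3 and at most 4.50 normalized counts in the ssNM-Rs. The mice held 6.02, 5.43 and 0, so mouse 3 was level with the lsNM-Rs and the call rests on few reads.

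Between lsNM-Rs and ssNM-Rs directly, 0 of 48 genes and 0 of all 12946 genes passed in limma. At an unadjusted p under 0.05 there were 4 of 48 genes, against 8.79% of all genes, and 4 by edgeR and 4 by DESeq2. DESeq2 called 57 (0.534%) of 10677 genes with an adjusted p and edgeR called 0, and the smallest adjusted p of the 48 genes was 0.442 in limma, 0.172 in DESeq2 and 0.485 in edgeR. The cohorts did not overlap for 5 of the 48 genes, as for 13.1% of all genes. Des was the lowest in unadjusted p, with lsNM-Rs at 446 to 736 and ssNM-Rs at 796 to 986 (log2 fold change lsNM-R over ssNM-R -0.57, SE 0.17, unadjusted p = 0.00757, adjusted p = 0.442). Its filament partner Synm stood the other way, at 176 to 232 in lsNM-Rs and 138 to 157 in ssNM-Rs (0.40, SE 0.15, adjusted p = 0.533). Myl6 was at 6722 to 8130.0 and 8448 to 9653 (-0.31, SE 0.11, adjusted p = 0.488), and the low genes Myl7 and Actc1 also did not overlap.

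For the genes that separate the species, and for Myh11, which did not pass there, the cohorts were not told apart at 3 spleens each. Acta2 differed by -0.28 (SE 0.24, adjusted p = 0.756), Tagln by -0.23 (SE 0.26), Myh11 by -0.25 (SE 0.29), Cnn2 by 0.09 (SE 0.16), Myh10 by 0.13 (SE 0.26) and Myh1 by -0.36 (SE 0.32) on the log2 scale. Of the NM-R libraries, ssNM-R 2, ssNM-R 3 and lsNM-R 1 had 8985705 reads or fewer and the others 16883689 or more. With this depth class as a limma term among the NM-R spleens alone, 7 of the 48 genes had an unadjusted p under 0.05 and the smallest adjusted p was 0.486. The share of all genes in that fit was not taken, so the 7 have no background beside them. Tnnt3, a gene of few reads, was lowest in unadjusted p (-1.15, unadjusted p = 0.00643). Tagln (-0.46, adjusted p = 0.504), Tpm2 (-0.63, adjusted p = 0.486), Myl6, Myl7 and Actc1 were also lower in lsNM-Rs, and Synm was higher (0.44). Des, the lowest in unadjusted p without this term, was not among the 7.

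**Figure D5:**
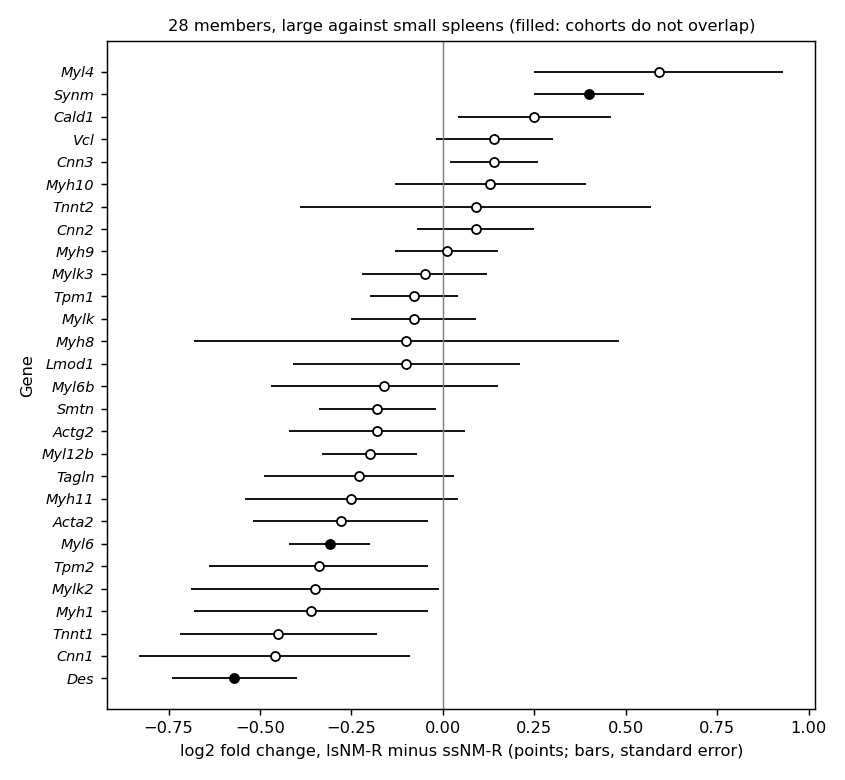
Log2 fold change of lsNM-R over ssNM-R with its standard error for the 28 genes that averaged 100 or more in a group. Filled points mark genes whose cohorts do not overlap: Synm is higher (0.40) and Myl6 (-0.31) and Des (-0.57) are lower in lsNM-Rs, and none has an adjusted p under 0.05.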

How the data were processed

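The data are spleen RNA-seq of 3 animals in each of 3 groups, 1 library per animal. Groups were taken from the organism and spleen size in the labels. The methods name a total RNA kit and a NovaSeq, the labels a TruSeq stranded mRNA kit and a HiSeq, and which holds is not known. Per the methods and the submitters' processing notes, the authors aligned reads with STAR 2.5.3a to mm9 or hetGla2, counted them with HTSeq 0.10.0, renamed NM-R genes after their mouse homologues and normalized the merged counts in DESeq2. The signal values the authors deposited are these normalized counts, with genes under a sum of 10 reads left out. In every library 100.0% of values were whole multiples of 1 step (tolerance 0.001), which returned the reads.

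Values were fitted as log2(normalized count + 1) in limma 3.58.1 (R 4.3.3), 1 mean per group over 9 spleens, with eBayes moderation around a trend. Tests were 2-sided, adjusted after Benjamini and Hochberg over 12946 genes. The fold changes on this scale understate those of low genes. Folds are ratios of mean normalized counts. The script was tested on simulated data. Genes were chosen by name, those averaging at least 100 in a group are given by spleen and the others by range. The genes and lists were chosen with earlier results of these data known. Positions, exon lengths and windows come from mm9 with GENCODE vM1. Shared stretches are the 100-base stretches of mouse protein-coding transcripts found in another gene.

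Alternatives were pseudocounts of 0.5 and 5, a mean of at least 10, rescaling to the same total or upper quartile, quantile normalization, no trend, the compared groups alone, a replicate block, each spleen left out in turn, count tests on the reads (edgeR 4.0.16, quasi-likelihood and TMM, and DESeq2 1.42.0), and depth class as a term.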

Additional observations from a re-analysis of the deposited data

Results flagged for a closer look

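The highest and lowest of the 6 NM-R spleens were set against Dixon's critical value, for the 28 genes that averaged 100 or more in a group. A spleen stood apart from the others in 4 of them. The critical value is set to flag about 1 in 20 for normally distributed values. The counts were not put on a log scale and the genes share libraries, so the 4 flags cannot be weighed against that rate. Myh10 was at 5164 in lsNM-R 4, the female, against 3036 to 3779.7 in the other NM-Rs (gap over range 0.651). Cnn1 was at 487 in ssNM-R 6 against 158 to 268 (0.664), Tnnt1 at 188 in the same spleen against 86.2 to 104 (0.826), and Tnnt2 at 350 there against 65.6 to 167 (0.644). In each case the spleen was the highest, and 3 of the 4 were ssNM-R 6. Without lsNM-R 4 or without ssNM-R 6, Myh10, Tnnt1 and Tnnt2 still passed between NM-R and mouse and Cnn1 still did not.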

How the results depend on the processing

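Of 160 alternative counts of called genes, 1 moved by over 1.5 times: with a replicate block 6 of the 48 genes were lower in lsNM-Rs than in mice, against 11. The replicate numbers do not pair the spleens (correlation of deviations 0.01, -0.005 and 0.001, with 0 of 3 NM-Rs correlating best with the mouse of its number). No mouse shares the number of lsNM-R 4, lsNM-R 5 or ssNM-R 6, so each of these is taken up by its own block term. In the block fit the lsNM-Rs therefore enter through lsNM-R 1 alone. Leaving out each spleen in turn gave 24 to 27 higher and 10 to 11 lower genes in NM-Rs, 24 to 27 and 9 to 11 in ssNM-Rs, 23 to 25 and 10 to 11 in lsNM-Rs, and 0 to 0 in each direction between cohorts. Of 902 alternative fold changes 861 kept direction and side of the threshold, 19 newly passed, 1 no longer passed (Tnnt2, in the report) and 21 changed sign, none of them a called gene. With a spleen left out, the sign changed within the ranges of Myh14 (-0.10 without mouse 1 to 0.56), Cald1 (-0.07 without mouse 3 to 0.21), Actc1 (-0.61 without mouse 1 to 1.85), Myh6 (-2.43 to 0.54 without mouse 3), Myl2 (-1.16 to 0.91 without mouse 3) and Myl3 (-0.37 without mouse 1 or mouse 2 to 1.16). It also changed for Cald1 (-0.25), Myh6 (0.85), Myh7 (0.14) and Myl2 (0.15) with the replicate block, for Myh14 (-0.04) and Myl3 (-0.02) by quantile normalization, for Myl3 (-0.02) with a pseudocount of 5, and for Actc1 and Myl3 by edgeR (-0.65 and -0.74) and DESeq2 (-0.68 and -0.49). The cause was not tested. The depth class gave no call between cohorts, and the block fit cannot test the cohorts because lsNM-R 1 alone stands for the lsNM-Rs in it. Genes of few reads, among them most striated genes, are limited by depth.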
